A study of Mus musculus with 2116 samples.

Results

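Conventional CD4+ T cells that carried mRNA of Izumo1r, the gene of folate receptor 4, made up 10.7% of the conventional T cells with at least 500 counted molecules: 79 cells with 1 molecule of it, 35 with 2 or 3 and 25 with 4 or more, beside 1155 with 0, among 2116 cells in all. They were chosen by 3 measured values, namely at least 1 Izumo1r molecule, 0 molecules of Foxp3 and at least 500 molecules in total, and these 3 values are given below as a description only. CD4+ T cells of the mouse spleen had been sorted and encapsulated with inDrops, a droplet method that tags the mRNA of each cell with random identifiers (UMIs), so that molecules and not reads are counted. All cells came from male mice of the strain B6 Foxp3-Ires-Gfp aged 8 months, in which green fluorescent protein (GFP) reports Foxp3, the master transcription factor of regulatory T cells. The sort took live (DAPI negative) cells positive for the T cell receptor beta chain and CD4, and the protocol speaks of populations with and without Foxp3 while it names a GFP positive gate only. The conventional (Tconv, 1300 cells) and regulatory (Treg, 816 cells) populations were told apart by the codes in the cell titles, read with the series title.

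The groups set side by side were the Tconv cells with Izumo1r and the 1155 Tconv cells with 0 Izumo1r UMIs, and beside them the Treg cells with Izumo1r and the Treg cells with 0 Izumo1r UMIs, all with at least 500 UMIs. Each population was 1 library and the labels name no animals, so cells are not replicates and no test of a difference was possible. Levels are UMIs summed over the cells of a group and divided by the group's total, as counts per 1000000 UMIs (CPM). All intervals are 95% intervals for counting error, and UMIs clump within cells, so they are narrower than the true uncertainty.

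Folate receptor 4 is a membrane protein of the folate receptor family that is anchored to the cell surface by a lipid. In mice it is known both as Juno, the receptor on the egg that binds Izumo1 on the sperm, and as a surface marker of regulatory T cells. On CD4+ T cells that lack Foxp3 it has been used, together with CD73, to mark anergic cells, that is cells that have met antigen and respond poorly to it, and it is also known from follicular helper T cells, which help B cells in germinal centres. In the GRCm38 annotation Izumo1r is a protein-coding gene on the minus strand of chromosome 9, from 14885814 to 14903949, with Gpr83, another gene of the Treg signature, 15024 bases away.

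Most of the cells held few Izumo1r molecules. Of the Izumo1r Tconv cells, 79 (56.8%) held exactly 1 Izumo1r UMI, 23 held 2, 12 held 3, and 25 held 4 or more, up to 18 in a single cell. Treg cells with Izumo1r held more, with a median of 3 UMIs and a highest value of 28, against a median of 1 in the Tconv cells. Summed over cells, Izumo1r stood at 1331 CPM in the Izumo1r Tconv cells and at 2229 CPM in the Izumo1r Treg cells. By library, 10.7% of Tconv cells (9.11 to 12.6, exact binomial) and 56.9% of Treg cells (53.4 to 60.4) had an Izumo1r UMI.

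**Figure D1:**
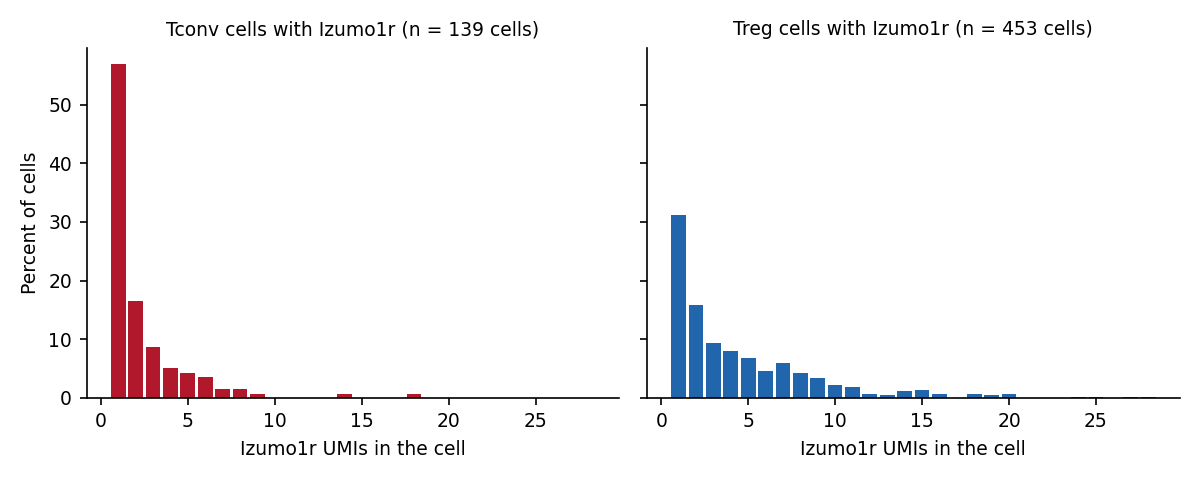
Izumo1r UMIs in each cell (horizontal axis) as a percent of the cells with at least 1 (vertical axis), for Tconv cells on the left and Treg cells on the right. A single UMI is the most frequent value in both, and 43.2% of the Tconv cells and 68.9% of the Treg cells held at least 2.

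The cells just inside the threshold held 1 Izumo1r UMI and those just outside it 0. When every cell was thinned to 500 UMIs, 48.2% of the Izumo1r Tconv cells kept an Izumo1r UMI, and a cell listed with 0 may still express the gene. The Izumo1r cells were somewhat deeper, with a median of 1678 UMIs (531 to 4209) against 1500 UMIs (506 to 6004) in the Tconv cells with 0 Izumo1r UMIs. Levels were therefore also computed with the Tconv cells that had 0 Izumo1r UMIs weighted to the depths of the Izumo1r cells (weighted median 1681 UMIs). Shares of cells were compared after thinning where this is stated. All other shares of cells are unthinned, so the greater depth of the Izumo1r cells adds to them. Just outside the limit on depth lay 6 Tconv cells under 500 UMIs, none of which held Izumo1r.

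The limit on Foxp3 removed no cell. No Tconv cell with Izumo1r had a Foxp3 UMI, so the rule left none out, and a count of 0 among them allows a share of up to 2.16%, taking 3 counts as the limit. Among the Tconv cells with 0 Izumo1r UMIs, 6 cells held 1 Foxp3 UMI each. Of the Treg cells with Izumo1r, 58.5% (53.8 to 63.1) had 0 Foxp3 UMIs although they came from the Treg library.

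By their markers the cells were T cells. The T lineage list (receptor complex genes such as Cd3e, the co-receptor Cd4 and signalling genes such as Lck and Lat) stood at 5282 CPM in the Izumo1r cells and 5369 CPM in the other Tconv cells, and all but 1 of the Izumo1r cells had at least 1 of its UMIs. Cd4 itself stood at 619.7 and 712.9 CPM, a log2 ratio of −0.20 (−0.46 to 0.04). Of defining markers of other cell types, Cd79a and Ms4a1 (B cells), Jchain and Sdc1 (plasma cells), Csf1r and Lyz2 (myeloid cells), Cd8a and Siglech were at 0 UMIs in the Izumo1r cells. Cd8b1, which encodes the beta chain of CD8, had 11 UMIs in 11 of them, at 45.7 CPM against 47.1 CPM in the other Tconv cells. Itgam, an integrin chain of myeloid cells, had 3 UMIs in 2 of them (12.5 and 11.4 CPM), and Zbtb16 and Klrb1c, of innate-like T cells, had 1 UMI each. Cd22, of the B cell list, had 16 and 43 UMIs, a log2 ratio of 1.45 (0.52 to 2.30). The summed lists stood lower in the Izumo1r cells for B cells (74.9 and 241.4 CPM), plasma cells (95.7 and 297.7 CPM), myeloid cells (124.8 and 333.4 CPM) and plasmacytoid dendritic cells (112.3 and 223.2 CPM). A single cell with 0 Izumo1r UMIs held most of the plasma cell UMIs of its group, and without it that list stood at 95.7 and 58.05 CPM, which turns the direction (log2 ratio 0.72, with an interval from 0 to 1.38). Without the cell that had the most myeloid UMIs, that list stood at 124.8 and 223.8 CPM (−0.84, −1.43 to −0.31). The lists of CD8 and natural killer cells (74.9 and 71.01 CPM) and of innate-like T cells (74.9 and 78.96 CPM) were level, at log2 ratios of 0.08 (−0.72 to 0.80) and −0.08 (−0.87 to 0.64). The erythroid list had 1 and 23 UMIs, and the platelet list 5 and 72 UMIs. No Izumo1r cell held 10 or more UMIs from any list of another cell type, against 15 of the 1155 cells. At 3 or more such UMIs there were 9 Izumo1r cells (6.47%) and 54 others (4.68%). Of all Tconv cells, the 15 with 10 or more such UMIs (median 1821 UMIs in total) included none with Izumo1r, which allows a share of up to 20% by the same limit, and among 19 such Treg cells (median 1867 UMIs) 2 did (10.5%, 1.30 to 33.1). These cells are too few to set a background share for Izumo1r, so the part of free RNA in the cells with a single Izumo1r UMI was not tested. No doublets were removed from the main values, and 3 Izumo1r cells and 14 others exceeded 2 times the median UMIs of the Tconv cells. Of the cell barcodes, 12 were shared between the libraries, 1 of them by an Izumo1r Tconv cell.

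Across genes, the groups of Tconv cells lay close together. Among 7651 genes with at least 20 UMIs in both together, and without Izumo1r and Foxp3, the median log2 ratio of Izumo1r cells over cells with 0 Izumo1r UMIs was −0.02. At least 2-fold higher were 5.23% of the genes and at least 2-fold lower 10.3%. Among the 2901 genes with at least 100 UMIs the shares were 1.21% and 3.41%. A gene can reach 20 UMIs through the group in which it is high, so the shares were also taken among 7314 genes with at least 20 UMIs in the cells without Izumo1r UMIs, where they were 3.76% and 10.4%. These shares over all genes are the background for the counts of 2-fold genes in each list below. Some genes are in more than 1 list, so the lists are not separate results. The sums rest on 240452 UMIs in the Izumo1r cells and 1760363 UMIs in the others.

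**Figure D2:**
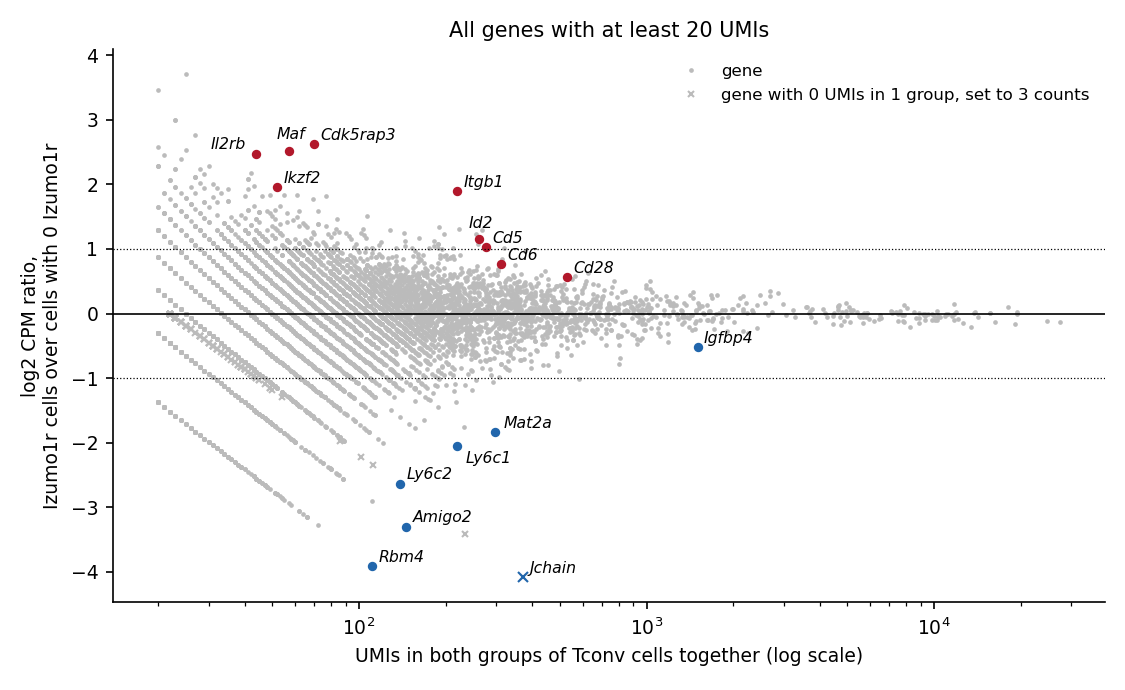
Each point is 1 of the genes with at least 20 UMIs, by its UMIs in both groups of Tconv cells together (horizontal, log scale) and its log2 CPM ratio, Izumo1r cells over cells with 0 Izumo1r UMIs (vertical). Crosses are genes with 0 UMIs in 1 group, set to 3 counts; dotted lines mark 2-fold. The ratios narrow around 0 as counts grow, and Itgb1, Id2 and Cd5 lie above 2-fold at 220 to 276 UMIs, while Mat2a and Ly6c1 lie below it at like counts.

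Treg signature genes stood higher in the Izumo1r Tconv cells, at a small part of their level in Treg cells. The list of 32 genes, without Foxp3 and Izumo1r, summed to 482.4 CPM (398.6 to 578.6) in the Izumo1r Tconv cells and 227.8 CPM (206.04 to 251.2) in the Tconv cells with 0 Izumo1r UMIs, a log2 ratio of 1.08 (0.77 to 1.38). In Treg cells it stood at 3773 CPM with Izumo1r and 2844 CPM with 0 Izumo1r UMIs, a log2 ratio of 0.41 (0.32 to 0.50). Of its 32 genes 6 had no UMI in either Tconv group and 9 reached 20 UMIs together; 7 of the 9 (Il2rb, Ikzf2, Tnfrsf4, Nrp1, Capg, Tigit and Ndrg1) were at least 2-fold higher and none was at least 2-fold lower, with a median log2 ratio of 1.46. Of the 5 with at least 20 UMIs in the cells without Izumo1r UMIs, 3 were at least 2-fold higher. Nrp1, Tnfrsf4 and Tigit were not among the 5, with 9, 14 and 16 UMIs in those cells. They reached 20 UMIs only through the Izumo1r cells, and the median over the 9 includes them. Capg was under 2-fold with depth weighted (log2 ratio 0.80), and Ndrg1 (0.71) and Tigit (0.88) were so without cells that had 3 UMIs of another cell type.

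The genes with the ratios farthest above 1, by the interval, were Nrp1, Il2rb and Ikzf2. Nrp1, the semaphorin co-receptor neuropilin-1 that marks thymus-derived Treg cells, had 16 UMIs in 11 Izumo1r cells and 9 UMIs in 8 of the 1155 other cells, a log2 ratio of 3.70 (2.44 to 5.06). Il2rb, the beta chain of the interleukin 2 receptor, had 19 UMIs in 10 cells and 25 UMIs in 19 cells, a log2 ratio of 2.48 (1.53 to 3.40). Ikzf2, which encodes the transcription factor Helios, had 18 UMIs in 8 cells and 34 UMIs in 22 cells, a log2 ratio of 1.95 (1.04 to 2.82), and a single Izumo1r cell held 9 of the 18. Each of these genes was detected in a larger share of the Izumo1r cells, but in 8 to 11 of them. Nrp1 and Ikzf2 were found together in 5 Izumo1r cells and in none of the 1155 others.

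Other members were sparse or level. Tnfrsf4, the costimulatory receptor OX40, had 7 UMIs in Izumo1r cells and 14 UMIs in the others (log2 ratio 1.87, 0.32 to 3.28), and the inhibitory receptor gene Tigit 6 and 16 UMIs (1.46, −0.18 to 2.88). Gpr83, the neighbour of Izumo1r on chromosome 9 and a G protein-coupled receptor typical of Treg cells, had 5 and 12 UMIs (1.61, −0.25 to 3.22). Ctla4, the inhibitory receptor that Treg cells hold constitutively, had 3 UMIs in 3 Izumo1r cells and 2 UMIs in 2 others. The intervals of Tigit and Gpr83 included 0. Il2ra, the alpha chain of the interleukin 2 receptor (CD25), had 1 UMI in Izumo1r cells and 12 UMIs in the others, while Tnfrsf18, the receptor GITR, stood at 62.4 and 68.7 CPM, a log2 ratio of −0.14 (−1.02 to 0.64). In Izumo1r Treg cells Il2ra stood at 446.7 CPM, against 4.16 CPM in Izumo1r Tconv cells, and Ctla4 at 126.5 CPM against 12.5 CPM.

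At equal depth the share of cells with a Treg signature UMI was higher as well, although at such low counts a share of cells does not show how many cells differed. After thinning to 500 UMIs, at least 1 Treg signature UMI was found in 16.5% of the Izumo1r Tconv cells (10.8 to 23.8) and 8.74% of the Tconv cells with 0 Izumo1r UMIs (7.18 to 10.5), beside 70.4% of Izumo1r Treg cells and 57.1% of the other Treg cells. After thinning to 1000 UMIs, which left out 15 Izumo1r Tconv cells and shallower cells of the other group too, UMIs of at least 2 different signature genes were found in 8 Izumo1r Tconv cells (6.45%, 2.83 to 12.3) and 14 others (1.42%, 0.780 to 2.38). In Izumo1r Treg cells that share was 61.5%.

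**Figure D3:**
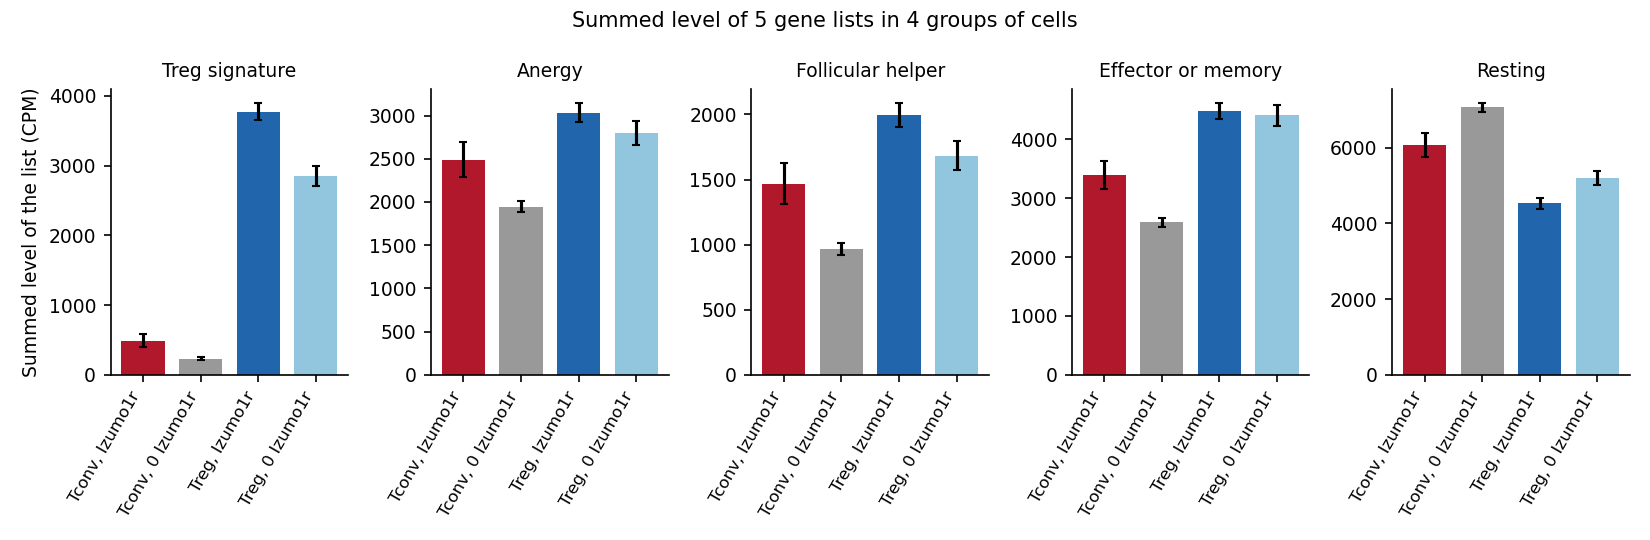
Summed level of 5 gene lists in CPM (bars, from 0) in Tconv cells with Izumo1r, Tconv cells with 0 Izumo1r UMIs, Treg cells with Izumo1r and Treg cells with 0 Izumo1r UMIs; error bars are 95% Poisson intervals. The Treg signature of the Izumo1r Tconv cells (482.4 CPM) lies far below that of both Treg groups, while the anergy list (2483 CPM) and the follicular helper list (1464 CPM) lie nearer to theirs.

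The follicular helper list stood higher as well. Its 30 genes summed to 1464 CPM (1315 to 1625) in the Izumo1r cells and 967.4 CPM (922.0 to 1014.5) in the Tconv cells with 0 Izumo1r UMIs, a log2 ratio of 0.60 (0.43 to 0.76). Of 18 genes with at least 20 UMIs together 3 (Cxcr5, Tox and Maf) were at least 2-fold higher, none at least 2-fold lower, and the median log2 ratio was 0.51; of 16 with at least 20 UMIs in the cells without Izumo1r UMIs, 2 (Tox and Maf) were at least 2-fold higher. Without cells that had 3 UMIs of another cell type the log2 ratio of Tox was 0.83. Treg cells with Izumo1r stood at 1997 CPM and Treg cells with 0 Izumo1r UMIs at 1682 CPM.

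Pdcd1, which did not reach 20 UMIs, encodes PD-1, an inhibitory receptor that follicular helper cells and exhausted or anergic cells carry. It had 14 UMIs in 8 Izumo1r cells and 3 UMIs in 2 of the 1155 other cells, a log2 ratio of 5.09 (3.25 to 7.53). Cxcr5, the chemokine receptor that guides cells into B cell follicles, had 12 UMIs in 6 Izumo1r cells and 8 UMIs in 8 others, a log2 ratio of 3.46 (2.05 to 4.95). With cells weighted to equal depth the log2 ratios were 5.75 for Pdcd1 and 2.77 for Cxcr5, and neither gene reached 20 UMIs in the cells without Izumo1r UMIs. Maf, a transcription factor of follicular helper and interleukin 10 producing cells, had 25 UMIs in 14 Izumo1r cells and 32 UMIs in 22 others, a log2 ratio of 2.52 (1.70 to 3.32). The remaining members with an interval above 0 were Cd200, a surface ligand of follicular helper cells (7 and 9 UMIs, 2.51, 0.85 to 4.10), the transcription factor gene Tox (24 and 87 UMIs, 1.01, 0.30 to 1.68) and Cd84, an adhesion receptor of the SLAM family (174.7 and 118.7 CPM, 0.56, 0.04 to 1.04). Cd200 reached the 10 UMIs needed to be named only through the Izumo1r cells.

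The transcription factor that directs follicular helper cells was too sparse to compare. Bcl6 had 2 UMIs in Izumo1r cells and 19 UMIs in the others (log2 ratio −0.38, −3.52 to 1.68), and the costimulatory receptor gene Icos stood at 45.7 and 60.8 CPM (−0.41, −1.46 to 0.49). Il21, the cytokine of these cells, had 2 UMIs in 1 Izumo1r cell and 0 UMIs in the others. The intervals of Bcl6 and Icos are wide, and at these counts a difference in Bcl6 was not detectable.

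Pdcd1 and Cxcr5 were found in the same cell in part. Of the Izumo1r cells, 10 (7.19%) held a UMI of either gene and 4 held both, while 10 of the 1155 others (0.866%) held either and none both. The 10 Izumo1r cells had up to 3511 UMIs in total and 1 to 8 Izumo1r UMIs. In them Maf was found in 6 cells, Itgb1 in 5, Tox in 4, Cd44 in 4, and Ccr7 and Il7r in 1 cell each, while Cd4 was found in 7. Bcl6 was found in none of the 10.

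UMIs of genes from other cell type lists lay in the same cells as these receptors. Of the 9 Izumo1r cells at or above 3 such UMIs, 3 held 8 of the 14 Pdcd1 UMIs and 6 of the 12 Cxcr5 UMIs, and 2 of the 3 were among the 4 cells with both genes. In 2 of the 3 the UMIs of another type were Cd22 (4 and 3 UMIs), a gene of the B cell list, and in 1 they were 5 UMIs of Hmox1, a gene of the myeloid list. Cd79a, Csf1r and Lyz2 were at 0 UMIs in all 10 cells with Pdcd1 or Cxcr5. Without all cells that had 3 UMIs of another type, Pdcd1 had 6 UMIs in the Izumo1r cells and 3 UMIs in the others (log2 ratio 3.88, 1.65 to 6.51), and Cxcr5 6 and 6 UMIs (2.88, 0.98 to 4.78). Both ratios were smaller but still had intervals above 0.

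Anergy genes stood higher to a smaller extent. The 32 genes summed to 2483 CPM (2288 to 2690) in the Izumo1r cells and 1943 CPM (1879 to 2010) in the Tconv cells with 0 Izumo1r UMIs, a log2 ratio of 0.35 (0.23 to 0.48). Izumo1r Treg cells stood at 3034 CPM and the other Treg cells at 2793 CPM. Of 21 genes with at least 20 UMIs together 6 (Nrp1, Cd5, Nfatc1, Ndrg1, Cd38 and Ubash3b) were at least 2-fold higher and 1 at least 2-fold lower, with a median log2 ratio of 0.36; of 19 with at least 20 UMIs in the cells without Izumo1r UMIs the counts were 4 and 1. The 1 gene lower was Cish, an inhibitor of cytokine signalling, with 1 UMI in Izumo1r cells and 33 UMIs in the others. Its interval included equality, and across all genes 10.3% were at least 2-fold lower. The anergy list shares 5 genes with the Treg signature (Ctla4, Ndrg1, Nrp1, Nt5e and Tnfrsf18) and 2 with the follicular helper list (Cd200 and Pdcd1). Without genes of the other 4 main lists, the log2 ratio of the anergy list was 0.28 (0.14 to 0.41).

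Cd5, an inhibitory receptor whose level follows the strength of self-recognition, was found in 27.3% of the Izumo1r cells and 15.5% of the others and stood at 249.5 and 122.7 CPM, a log2 ratio of 1.02 (0.59 to 1.44). Its relative Cd6, from the T lineage list, was found in 35.3% and 16.5% of the cells and stood at 245.4 and 143.7 CPM, a log2 ratio of 0.77 (0.34 to 1.19). Nfatc1, a transcription factor activated by calcium signals, stood at 199.6 and 84.6 CPM (1.24, 0.74 to 1.72; 0.99 without cells that had 3 UMIs of another cell type), and Ubash3b, a phosphatase that dampens receptor signalling, had 14 and 36 UMIs (1.51, 0.50 to 2.44). A UMI of Cd5 or Cd6 was found in 70 Izumo1r cells (50.4%) and in 27.8% of the others. After thinning to 500 UMIs, Cd5 was found in 13.7% of Izumo1r cells (8.43 to 20.5) and 5.63% of the others (4.37 to 7.12).

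Genes of recent receptor signalling were level as a list, and single ones were mostly sparse. Nr4a1, which is induced within hours of receptor signals, had 12 UMIs in 5 Izumo1r cells and 61 UMIs in 17 others (log2 ratio 0.53, −0.50 to 1.43), and 1 Izumo1r cell held 8 of the 12. Egr2, a transcription factor of anergic cells, had 3 and 24 UMIs (−0.13, −2.50 to 1.59), and the inhibitory receptor gene Lag3 3 and 5 UMIs (2.14, −0.55 to 4.50). Nt5e, the enzyme CD73 that marks anergic cells together with folate receptor 4, had 1 UMI in Izumo1r cells and 16 UMIs in the others (−1.13, −6.52 to 1.56). The list of 24 receptor response genes summed to 1219 and 1188 CPM, a log2 ratio of 0.04 (−0.14 to 0.21), and none of its 15 genes with at least 20 UMIs differed by 2-fold. In it the immediate early gene Junb stood at 182.99 and 123.3 CPM (0.57, 0.07 to 1.04) and the growth regulator Myc at 91.5 and 149.4 CPM (−0.71, −1.41 to −0.08).

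Costimulatory and inhibitory receptors as a list stood at 2059 CPM in the Izumo1r cells and 1387 CPM in the others, a log2 ratio of 0.57 (0.43 to 0.71), and 3 of its 16 genes with at least 20 UMIs together (Tigit, Tnfrsf4 and Cd5) were at least 2-fold higher. Of the 14 with at least 20 UMIs in the cells without Izumo1r UMIs, 1 (Cd5) was. Of its abundant members, the main costimulatory receptor Cd28 had 89 and 440 UMIs (log2 ratio 0.57, 0.22 to 0.90).

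Effector or memory genes stood higher, and least so of the higher lists once depth was weighted. The list of 34 genes summed to 3389 CPM (3161 to 3630) in the Izumo1r cells and 2593 CPM (2519 to 2670) in the Tconv cells with 0 Izumo1r UMIs, a log2 ratio of 0.39 (0.28 to 0.49), against 4487 CPM in Izumo1r Treg cells and 4410 CPM in the other Treg cells. Of 24 genes with at least 20 UMIs together 7 (Itgb1, Anxa2, S100a11, S100a6, Id2, Cxcr3 and Maf) were at least 2-fold higher. Another 2 were at least 2-fold lower. By direction alone 14 of the 24 were higher and 10 lower, with a median log2 ratio of 0.33. All 24 had at least 20 UMIs in the cells without Izumo1r UMIs. With those cells weighted to the depths of the Izumo1r cells the log2 ratio was 0.28. So weighted, Anxa2 had a log2 ratio of 1.15, while S100a6 (0.36) and Cxcr3 (0.68) were no longer 2-fold higher.

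Itgb1, the integrin beta 1 chain of antigen-experienced T cells, was found in 21 Izumo1r cells and 70 others and stood at 307.8 and 82.9 CPM, a log2 ratio of 1.89 (1.47 to 2.30). Anxa2, a calcium-dependent membrane-binding protein of effector cells, had 16 and 26 UMIs (2.17, 1.18 to 3.12), and the calcium-binding protein gene S100a11 stood at 232.9 and 94.3 CPM (1.30, 0.84 to 1.75). Id2, a regulator of effector differentiation, was found in 30 Izumo1r cells and stood at 253.7 and 113.6 CPM, a log2 ratio of 1.16 (0.72 to 1.58). S100a6 stood at 158.04 and 70.4 CPM (1.17, 0.60 to 1.70), with 11 of its 38 UMIs in 1 Izumo1r cell, and Cd44, the hyaluronan receptor of activated cells, had 19 and 74 UMIs (0.91, 0.10 to 1.65). S100a4, of the same family, had 9 and 45 UMIs (0.55, −0.67 to 1.60). At least 2-fold lower were Ccr2 (1 and 33 UMIs) and Ccl5 (1 and 20 UMIs), a chemokine receptor and a chemokine of inflammatory effector cells, with intervals that reached above 0.

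Helper lineage factors stood at 989.8 CPM in the Izumo1r cells and 728.8 CPM in the others, a log2 ratio of 0.44 (0.24 to 0.64), and the 2 of 10 measured genes that were at least 2-fold higher were Maf and Id2. Zbtb7b, which fixes the CD4 lineage, stood at 120.6 and 79.5 CPM (log2 ratio 0.60, −0.03 to 1.19). The cytokine list was level at 727.8 and 733.9 CPM, and most of it was lymphotoxin beta (Ltb, 669.6 and 693.04 CPM, −0.05, −0.29 to 0.19). Tumour necrosis factor (Tnf) had 1 and 35 UMIs and lymphotoxin alpha (Lta) 5 and 13 UMIs, both with intervals that included 0.

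Resting T cell genes stood slightly lower, and most remained well detected. The 21 genes summed to 6072 CPM (5764 to 6392) in the Izumo1r cells and 7072 CPM (6948 to 7197) in the Tconv cells with 0 Izumo1r UMIs, a log2 ratio of −0.22 (−0.30 to −0.14). Izumo1r Treg cells stood at 4529 CPM and the other Treg cells at 5199 CPM, a log2 ratio of −0.20 (−0.27 to −0.13). All 21 genes had at least 20 UMIs in the cells without Izumo1r UMIs, 15 were lower and 6 higher in the Izumo1r cells, and 1 was at least 2-fold lower.

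Il7r, the receptor for the survival cytokine interleukin 7, stood at 182.99 CPM in Izumo1r cells and 285.2 CPM in the others (log2 ratio −0.64, −1.12 to −0.19), and Igfbp4, a secreted growth factor binding protein of resting T cells, at 544.8 and 780.5 CPM (−0.52, −0.79 to −0.26). Foxp1, a transcription factor that keeps T cells quiescent, stood at 345.2 and 477.2 CPM (−0.47, −0.81 to −0.14), and S1pr1, the receptor for exit from lymphoid organs, at 382.6 and 496.5 CPM (−0.38, −0.70 to −0.06). Ccr7, the chemokine receptor of lymph node entry, stood at 420.04 and 501.03 CPM (−0.25, −0.57 to 0.04), and Lef1, a transcription factor of naive cells, at 66.5 and 77.8 CPM (−0.23, −1.07 to 0.53).

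The exception in size was Ly6c1, a surface protein of quiescent T cells that is low on cells with strong self-recognition. It had 7 UMIs in 6 Izumo1r cells, was found in 130 others and stood at 29.1 and 120.4 CPM, a log2 ratio of −2.05 (−3.38 to −0.98). Ly6c2, a near-identical copy beside it on chromosome 15, had 3 UMIs in 3 Izumo1r cells, was found in 100 others and stood at 12.5 and 77.3 CPM, a log2 ratio of −2.63 (−4.93 to −1.05), and reads of the 2 genes can be confused by counting. A UMI of either gene was found in 7 Izumo1r cells (5.04%) and 140 others (12.1%). Izumo1r Treg cells also had less of both than Treg cells with 0 Izumo1r UMIs, with Ly6c1 at 104.5 and 213.6 CPM (log2 ratio −1.03, −1.44 to −0.63) and Ly6c2 at 64.9 and 133.96 CPM (−1.05, −1.56 to −0.53). Without Ly6c1 the resting list had a log2 ratio of −0.20 (−0.28 to −0.12).

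**Figure D4:**
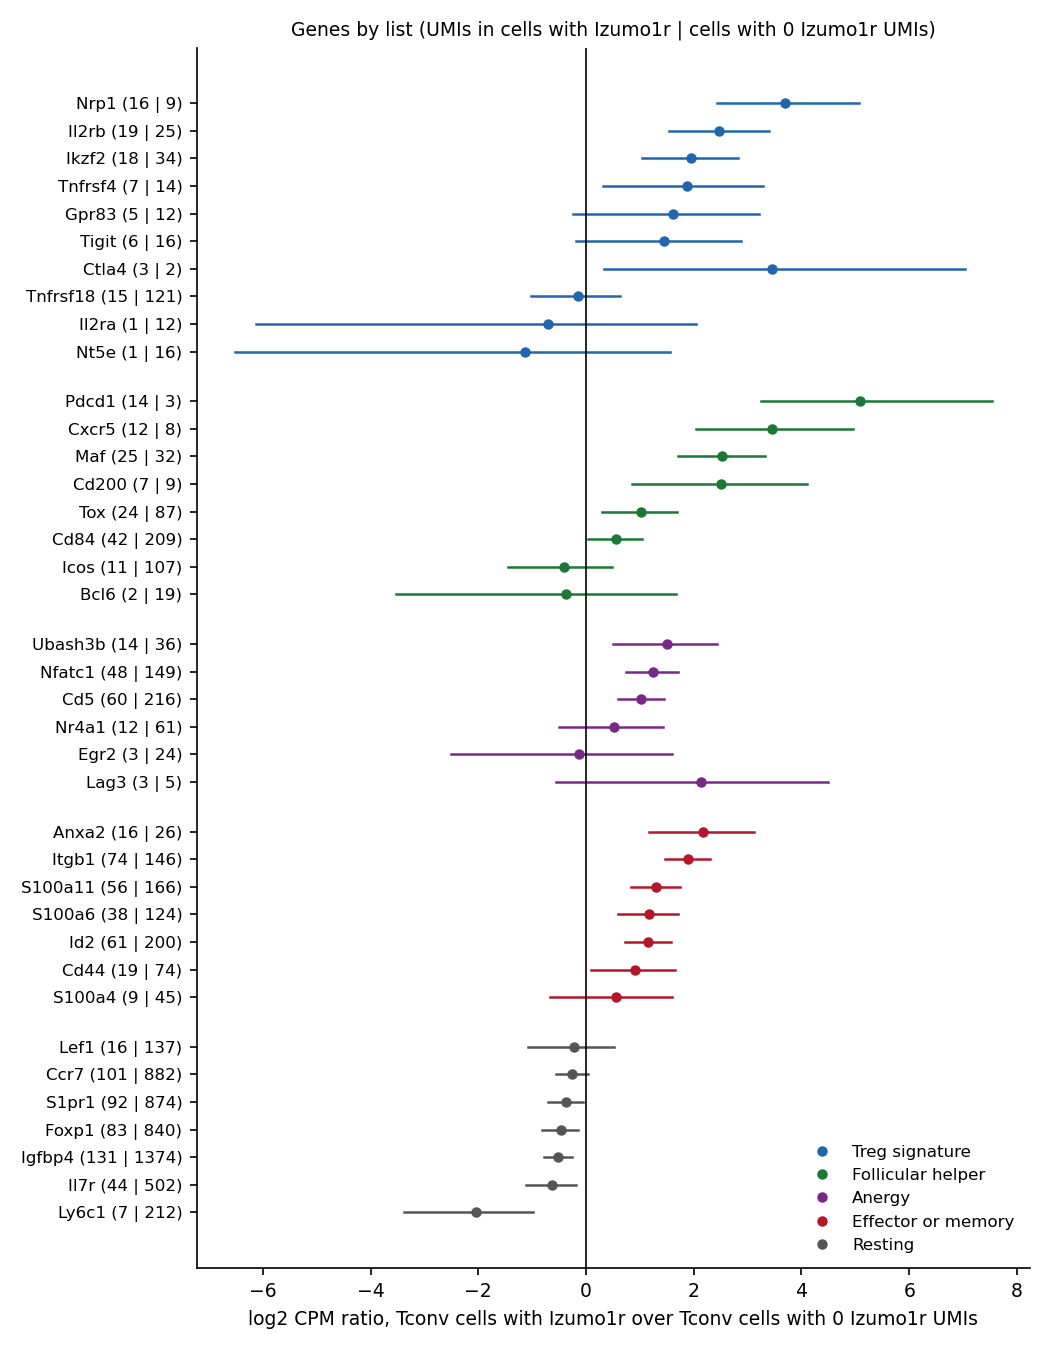
The log2 CPM ratio, Tconv cells with Izumo1r over Tconv cells with 0 Izumo1r UMIs (horizontal axis), of genes of the 5 lists (vertical axis), each with its UMIs in the 2 groups; points are ratios, lines 95% exact conditional intervals, and the vertical line is equality. Nrp1, Pdcd1, Cxcr5, Maf and Itgb1 lie far to the right with intervals above 0. The resting genes drawn lie slightly to the left, from −0.23 for Lef1 to −0.64 for Il7r, except Ly6c1 at −2.05. Of them Il7r, Igfbp4, Foxp1, S1pr1 and Ly6c1 have intervals below 0. Of all 21 resting genes 15 were lower and 6 higher in the Izumo1r cells, and none of the 6 is drawn.

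The differences were not spread evenly over the amount of Izumo1r. Cells were divided by their Izumo1r UMIs into those with 1 (79 cells, median 1664 UMIs in total), with 2 or 3 (35 cells, 1637 UMIs) and with 4 or more (25 cells, 1827 UMIs), classes that were chosen after the data had been seen. The Treg signature stood at 227.8 CPM in the Tconv cells with 0 Izumo1r UMIs, at 207.9 CPM (137.04 to 302.6) with 1 UMI, at 843.7 CPM (630.1 to 1106.4) with 2 or 3 and at 755.4 CPM (531.9 to 1041.3) with 4 or more. Effector or memory genes stood at 2593 CPM with 0, 2511 CPM (2246 to 2799) with 1, 3910 CPM (3432 to 4436) with 2 or 3 and 5064 CPM (4453 to 5734) with 4 or more. In both lists, cells with a single Izumo1r UMI were level with cells that had none, within the intervals, and the excess lay in the 60 cells with at least 2.

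Follicular helper and resting genes differed from 1 UMI on. Follicular helper genes stood at 967.4 CPM with 0 Izumo1r UMIs, 1293.9 CPM (1105.6 to 1505.0) with 1, 1590.1 CPM (1290.9 to 1937.8) with 2 or 3 and 1755.9 CPM (1404.5 to 2168.5) with 4 or more. Anergy genes stood at 1943 CPM with 0, 2156 CPM (1911 to 2424) with 1, 2807 CPM (2404 to 3258) with 2 or 3 and 2940 CPM (2480 to 3461) with 4 or more. Resting genes stood at 7072 CPM with 0, 6169 CPM (5749 to 6612) with 1, 6474 CPM (5854 to 7141) with 2 or 3 and 5308 CPM (4683 to 5994) with 4 or more. The intervals of neighbouring classes with Izumo1r overlap in these 3 lists.

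**Figure D5:**
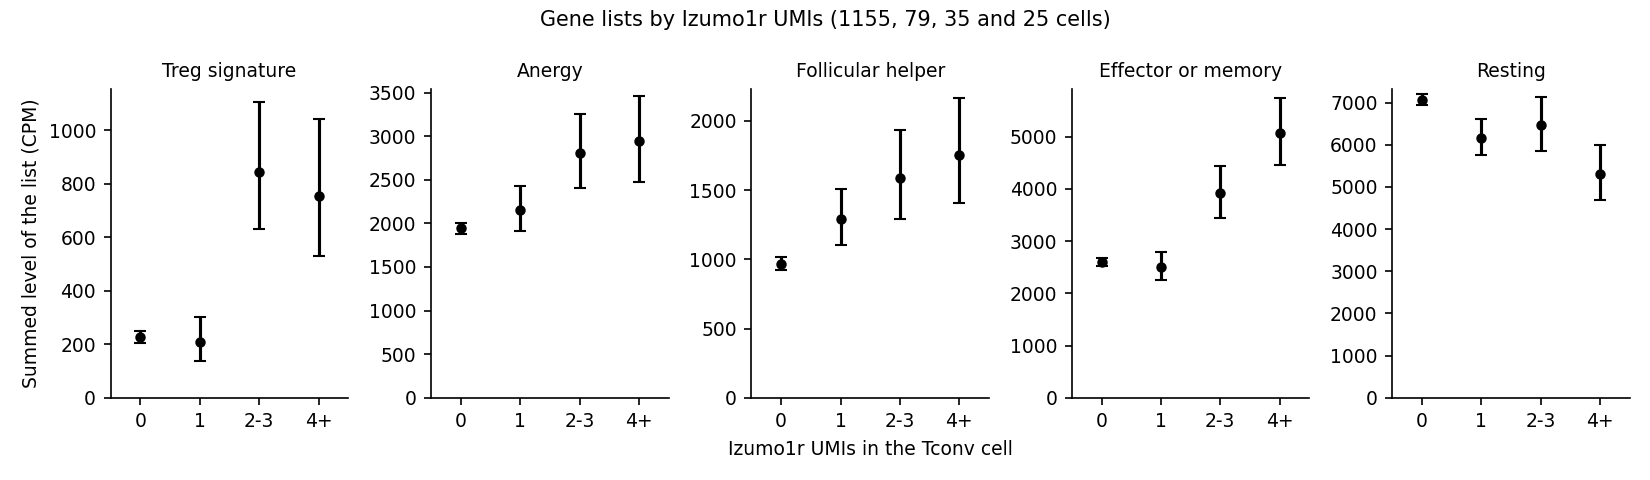
Summed level of 5 gene lists in CPM (vertical axes, from 0) by the Izumo1r UMIs of the Tconv cell (horizontal axes: 0, 1, 2 to 3, 4 or more), with 1155, 79, 35 and 25 cells; points are sums over cells and lines 95% Poisson intervals. The Treg signature and the effector or memory list are level between 0 and 1 UMI and higher above, while the follicular helper list is already higher at 1.

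T lineage genes stood at 5369 CPM with 0 Izumo1r UMIs, 5414 CPM with 1, 5630 CPM with 2 or 3 and 4492 CPM (3918 to 5126) with 4 or more. Among single genes, Ikzf2 was not detected in the class with 1 Izumo1r UMI. It had 0 UMIs in the 79 cells with 1 Izumo1r UMI, 14 UMIs in the 35 cells with 2 or 3 and 4 UMIs in the 25 cells with 4 or more. A single cell held 9 of the 14. Ikzf2 stood at only 19.3 CPM in cells with 0 Izumo1r UMIs, so the class with 1 cannot be told from them. Nrp1 had 2, 10 and 4 UMIs in the 3 classes. Itgb1 stood at 82.9 CPM in cells with 0 Izumo1r UMIs, 107.8 CPM with 1, 340.7 CPM with 2 or 3 and 796.3 CPM with 4 or more. Cd5 stood at 122.7 CPM with 0 Izumo1r UMIs, already at 238.8 CPM with 1, at 308.3 CPM with 2 or 3 and at 204.2 CPM with 4 or more. Ly6c1 stood at 120.4 CPM with 0, 30.8 CPM with 1, 32.5 CPM with 2 or 3 and 20.4 CPM with 4 or more. Il7r stood at 285.2 CPM with 0, 231.1 CPM with 1 and 210.9 CPM with 2 or 3, and had 1 UMI (20.4 CPM) in the cells with 4 or more.

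Cell by cell, the features overlapped in part. Of the Izumo1r cells, 23 (16.5%) held a UMI of Nrp1, Ikzf2, Il2rb, Ctla4 or Il2ra, against 55 of the 1155 others (4.76%). A UMI of Itgb1 or S100a6 was held by 25 Izumo1r cells (18%) and 85 others (7.36%). Both kinds were found together in 13 Izumo1r cells and 16 others, and Pdcd1 or Cxcr5 with a Treg gene in 4 and 3 cells. None of the 3 kinds was found in 72.7% of the Izumo1r cells and 88.9% of the others. The sets of genes for these counts were chosen after the data had been seen, and a sparse count misses genes that a cell expresses.

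Among all genes with at least 30 UMIs in both groups together, 12 stood out on the upper side by the bound of the interval nearest to 1. They were Cdk5rap3, Maf, Il2rb, Itgb1, Anxa2, Tnpo1, Oat, Fam214a, Cdca7, Ikzf2, Ankrd16 and Scd2. In the cells with 0 Izumo1r UMIs, Tnpo1 had 18 UMIs, Il2rb 25, and Anxa2, Cdca7 and Fam214a 26 each. Those genes reached 30 UMIs only through the Izumo1r cells. Intervals of genes picked as extremes, here and on the lower side, do not allow for that choice. Cdk5rap3, a component of the machinery that attaches the small protein UFM1 to its targets, had 32 UMIs in 12 Izumo1r cells and 38 UMIs in 32 others, a log2 ratio of 2.62 (1.90 to 3.34). Tnpo1, a nuclear import receptor, had 12 and 18 UMIs (2.29, 1.10 to 3.42), and Oat, the mitochondrial ornithine aminotransferase, 25 and 52 UMIs (1.82, 1.07 to 2.53). Scd2, a desaturase of fatty acid synthesis, had 22 and 47 UMIs (1.78, 0.98 to 2.54). In Izumo1r Treg cells Cdk5rap3 stood at 35.2 CPM and in the other Treg cells at 25.3 CPM, beside 133.1 CPM in Izumo1r Tconv cells and 21.6 CPM in the other Tconv cells.

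On the lower side stood genes of other cell types and a set of genes spread over many cells. Jchain, Lyz1, Cd74, Lyz2 and H2-Eb1 are genes of plasma cells, myeloid cells and antigen-presenting cells, and all 5 were at 0 UMIs in the Izumo1r cells. Against a floor of 3 counts over the group Jchain was 16.9-fold lower and Cd74 5.10-fold lower. However, 1 of the 1155 other cells held 98.9% of the Jchain UMIs, and 15 held all of Cd74. Lyz1 and Lyz2 are near-identical copies, as are parts of the H2 genes. Of the genes spread over many cells, Mat2a, the enzyme that makes the methyl donor S-adenosylmethionine, had 11 UMIs in 11 Izumo1r cells and stood at 45.7 and 162.5 CPM, a log2 ratio of −1.83 (−2.85 to −0.97). Amigo2, an adhesion protein, had 2 UMIs in 2 Izumo1r cells, was found in 75 others and stood at 8.32 and 81.8 CPM (−3.30, −6.36 to −1.42), and Rbm4, an RNA-binding protein, at 4.16 and 62.5 CPM (−3.91, −9.23 to −1.40). Nacc2 stood at 8.32 and 61.9 CPM, Ly6c1 and Ly6c2 are given above, and 1600002H07Rik had 0 UMIs in the Izumo1r cells and 54 UMIs in 52 others.

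The sums of the remaining lists were level or slightly lower. Genes known to be higher in conventional than regulatory T cells stood at 3410 CPM in the Izumo1r cells and 3880 CPM in the others (log2 ratio −0.19, −0.29 to −0.08). Genes whose level is known to follow self-recognition summed to 3493 and 3524 CPM (−0.01, −0.12 to 0.09). That list holds genes that rise and genes that fall with self-recognition, so its sum cannot show a shift in them. Of its 13 measured genes, 1 (Cd5) was at least 2-fold higher and 2 (Ly6c1 and Ly6c2) at least 2-fold lower, beside 5.23% and 10.3% of all genes. Homing receptors stood at 2666 and 2683 CPM (−0.01, −0.13 to 0.11). Proliferation genes stood at 1734 and 1691 CPM (0.04, −0.12 to 0.18), with the replication helicase gene Mcm6 at 19 and 59 UMIs (1.24, 0.41 to 2.0) and the sliding clamp gene Pcna at 262.01 and 309.6 CPM (−0.24, −0.64 to 0.14). Ribosomal protein genes made up 31.6% of the UMIs in the Izumo1r cells and 32.4% in the others.

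Interferon-induced genes stood lower, at 2067 and 2440 CPM, a log2 ratio of −0.24 (−0.38 to −0.11). None of 20 measured genes was at least 2-fold higher and 5 were at least 2-fold lower, among them Ly6c2 and the guanylate-binding protein gene Gbp2, which stood at 45.7 and 117.6 CPM (−1.36, −2.39 to −0.49). Genes of folate uptake and one-carbon metabolism, the pathway of the vitamin that gives the receptor its name, stood at 365.98 and 390.8 CPM (−0.09, −0.43 to 0.23), with none of 11 measured genes at least 2-fold higher and 3 at least 2-fold lower. Those were Shmt2, a mitochondrial enzyme that transfers carbon from serine to folate (2 and 86 UMIs, −2.55, −5.62 to −0.66), Mthfd2, the next enzyme in the mitochondrion (6 and 92 UMIs, −1.07, −2.55 to 0.11), and the folate carrier gene Slc19a1 (1 and 26 UMIs). The intervals of Mthfd2 and Slc19a1 included equality. Across all genes, the background for both lists, 5.23% were at least 2-fold higher and 10.3% at least 2-fold lower. Tyms, the thymidylate synthase, which did not reach 20 UMIs, had 5 and 7 UMIs (2.39, 0.39 to 4.26). It reached the 10 UMIs needed to be named only through the Izumo1r cells.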

How the data were processed

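Splenic CD4+ T cells were profiled one by one with inDrops on a NextSeq500, per the labels' protocols. The deposited table holds counts, whole numbers of UMIs for 23725 genes in 2116 cells, with no normalization by the authors. TopHat2, SAMtools and mm10 are named in the submitters' processing notes, without versions or roles. All columns were used (0 left out).

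UMIs were summed over the cells of a group and expressed per 1000000 UMIs. The groups were 139 Tconv cells with Izumo1r, 1155 Tconv cells with 0 Izumo1r UMIs, 453 Treg cells with Izumo1r and 343 Treg cells with 0, of 1294 Tconv and 796 Treg cells with at least 500 UMIs. Intervals are exact (Poisson for levels, conditional binomial for ratios, Clopper-Pearson for shares), at 95%, and cover counting error only, and where a group had 0 UMIs its fold was taken against 3 counts. With 1 library per population, no test was run. Genes were counted at 2-fold where both Tconv groups together had at least 20 UMIs. Cells were thinned to 500 or 1000 UMIs with a fixed seed, and the scripts were tested on simulated data. Python 3.11.15 with numpy 2.4.6, pandas 2.3.3, scipy 1.17.1 and matplotlib 3.10.9 was used, and R 4.3.3 with edgeR 4.0.16 for TMM factors (0.995 and 1.01). Positions are from the GRCm38 annotation, by symbol.

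The 24 lists held 453 entries, of which 15 were absent from the table. Named genes were the members of each list with at least 10 UMIs whose interval bound lay farthest from 1 (up to 6 for the 5 main lists, 3 for the others), the 12 highest and 12 lowest of all genes with at least 30 UMIs, and 27 fixed genes, some of which are not reported here. Cd4, Cd28, Cd22, Cd38, Capg, Ndrg1, Cxcr3, Hmox1, Cish, Ccr2, Ccl5 and Slc19a1 were named after their values were seen. The members and lists were chosen with earlier results of these data known. The alternatives were a minimum of 2 Izumo1r UMIs, other filters on low counts, TMM scaling, weighting for depth, and leaving out cells or genes.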

Additional observations from a re-analysis of the deposited data

How the results depend on the processing

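Over 55 alternatives for the log2 ratios of the 5 lists none reversed, and 49 moved by less than the counting interval. Those ratios lay between 0.89 and 1.29 for the Treg signature, 0.28 and 0.38 for anergy, 0.50 and 0.68 for follicular helper, −0.25 and −0.16 for resting and 0.32 and 0.49 for effector or memory genes. With at least 2 Izumo1r UMIs the log2 ratios were 1.82 for the Treg signature, 0.56 for anergy, 0.78 for follicular helper and 0.77 for effector or memory genes, and 8.96% of the genes were at least 2-fold higher, against 5.23% with at least 1. For effector or memory genes the log2 ratio was 0.28 with cells weighted to equal depth and 0.51 without cells that had 3 UMIs of another cell type. With a minimum of 10 UMIs a gene 6.92% of 9034 genes were at least 2-fold higher, and with a minimum of 50 UMIs 2.37% of 5030 genes were higher and 7.06% lower, against 5.23% and 10.3% of 7651 genes at the minimum of 20. The share of Izumo1r cells with a Treg signature UMI was 29.03% when thinned to 1000 UMIs and 36.7% without thinning. Leaving out genes held by another of the main lists, or the cell with 0 Izumo1r UMIs that had the most UMIs of a list, was added after seeing the data. Depth limits genes under about 20 UMIs in the Izumo1r cells, and the cause of these shifts was not tested. No paired analysis was possible because the numbers in the titles only number cells, and each population was 1 library.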

Other observations

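Cd22, an inhibitory receptor best known from B cells, was found in 11 Izumo1r Tconv cells and 40 Tconv cells with 0 Izumo1r UMIs. Without cells that had 3 UMIs of another cell type, a limit that Cd22 itself counts toward, it had 8 UMIs in Izumo1r Tconv cells and 34 UMIs in the others, a log2 ratio of 0.79 (−0.53 to 1.93). In Treg cells Cd22 stood at 26.4 CPM with Izumo1r and 50.7 CPM with 0 Izumo1r UMIs.

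In Treg cells, Bcl6 stood at 29.7 CPM with Izumo1r and 9.05 CPM with 0 Izumo1r UMIs (log2 ratio 1.71, 0.32 to 3.45), and Icos at 193.6 and 128.5 CPM (0.59, 0.19 to 1.01). In Tconv cells the intervals of both genes included 0. The difference between the 2 libraries was not tested.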
